A study of Mus musculus with 6 samples.

Results

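The genes examined were 38 mouse genes of glucose use, taken from a list of symbols: the transporters that bring glucose in, the enzymes of glycolysis, the enzymes that make and remove fructose 2,6-bisphosphate, the steps that turn pyruvate into lactate or admit it to the mitochondria, and the pentose phosphate pathway. All 38 were found among the 29616 genes of the deposited table. The RNA came from bone cells of C57BL/6 mice. Dexamethasone, a synthetic glucocorticoid hormone, was given to 1 group (3 libraries) each day at 0.08 µg/g over 4 weeks, starting when the animals were 8 weeks old, and 3 further libraries came from control mice. In the study's text the RNA is from cells sorted for Osteocalcin after the marrow had been removed, whereas the labels say only bone cells. The series design calls the replicates biological, and whether a library held 1 mouse or pooled mice is not given in the sources used here, so that p-values measure the spread between these libraries.

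Glycolysis splits glucose into pyruvate and yields ATP without oxygen. Its pace is set largely by glucose entry, by hexokinase, by phosphofructokinase and by pyruvate kinase. Fructose 2,6-bisphosphate, a small molecule that activates phosphofructokinase, is made and broken down by the bifunctional Pfkfb enzymes. The pentose phosphate pathway leaves glycolysis at glucose 6-phosphate and supplies NADPH and ribose. Osteoblasts, the cells that lay down bone matrix, are known for turning much of their glucose into lactate even when oxygen is present. Glucocorticoids act through the glucocorticoid receptor, a transcription factor that binds DNA once it has bound the hormone.

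The libraries held 72596611 to 89910728 reads. Across genes, which are not independent replicates, Pearson's r was 0.995 to 0.996 within groups and 0.947 to 0.950 between them. All 8 tested genes of glucocorticoid response passed the test as higher, and 7 of them were called. Of 10 osteoblast markers, 8 were called lower and 2 higher. Bglap, which encodes Osteocalcin, was listed at 98.2 to 122 normalized counts in control and 9.54 to 15.1 with dexamethasone. The 2 higher were Spp1 and Dmp1, with log2 fold changes of 5.25 and 7.16. The list, held mostly by Col1a1, Col1a2 and Spp1, summed to 2008940 to 2137601 normalized counts in control and 2010523 to 2142462 with dexamethasone. All 10 proliferation markers were called higher, and their summed level was 42559 to 45646 normalized counts in control and 261754 to 275661 with dexamethasone. Of 5 endothelial markers tested, 4 passed as higher and none was called. The 4 were Vwf (log2 fold change 0.76), Pecam1 (0.74, at 10.1 to 29.6 normalized counts), Flt1 (0.30) and Kdr (0.25), while Tek did not pass. Their list summed to 6465 to 6697 normalized counts in control and 8416 to 9551 with dexamethasone. Cdh5 and Tie1, too low to be tested, lay at 0 to 3.49 in every library, and Emcn and Cldn5 were not listed. The part of cell division or of changed cell makeup in the values that follow was not tested, and in bulk RNA fewer cells of a type and less RNA per cell cannot be told apart.

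RNA for the glucose transporter Slc2a1, the lactate and pyruvate transporter Slc16a1, the regulatory enzymes Pfkfb1 and Pfkfb4 and the ATP-forming enzyme Pgk1 was more than 2-fold higher with dexamethasone, while most other members moved by less than 2-fold. Of the 37 members tested, 6 were called higher with dexamethasone (Slc16a1, Pfkfb4, Slc2a1, Pfkfb1, Pgk1 and Aldoc) and 2 were called lower (Slc2a3 and Eno3). A gene was called where limma's adjusted p was under 0.05 and its log2 fold change was 1 or more, up or down. The log2 fold change is the difference of the group means of log2(normalized count + 1), and 1 stands for about 2-fold. The share of members called was 21.6%, beside 22.3% of all 17442 genes tested, 11.7% higher and 10.6% lower, so that the members were called about as often as any gene. With no requirement on the fold, 34 of the 37 members passed the adjusted p, 22 higher and 12 lower, which is 91.9% beside 72.5% of all genes (37.2% higher and 35.2% lower). The members were abundant. Of the 30 whose mean reached 1000 normalized counts, 28 passed and 4 were called (13.3%), beside 84.6% and 15.5% of the 8739 genes at that level.

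The median log2 fold change of the 37 members was 0.22, beside 0.00071 over all genes tested and 0.09 over those whose mean reached 1000. The sum of the 38 members held 0.664% to 0.675% of all normalized counts in the control libraries and 0.769% to 0.787% with dexamethasone. In 33 of the 37 members the 3 control and the 3 dexamethasone values did not overlap, beside 74.7% of all genes. When Gapdh was taken as the reference within each library, the median of the other 36 became -0.02 and the split of members passing the test became 16 higher and 15 lower. Gapdh is itself a glycolytic enzyme and was the control gene for real-time PCR in the study.

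Per kb of principal transcript, a scale that adjusts for transcript length, the 38 members spanned several orders of magnitude. The scale takes no account of sequence shared with other genes, which differed between members and is described below. Gapdh led with a mean of 80688 normalized counts per kb in control and 94676 with dexamethasone. Pkm (31126 and 44899), Aldoa (28142 and 23937) and Ldha (25096 and 31524) followed, and Ldha stood above Aldoa only with dexamethasone. Slc2a1 (1018 and 2512) and Slc16a1 (848 and 2428) lay in the middle of the range, and the Pfkfb genes lay between 75.1 and 568. Aldoc, Slc2a3 and Slc2a4 were under 12 per kb in both groups.

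**Figure D1:**
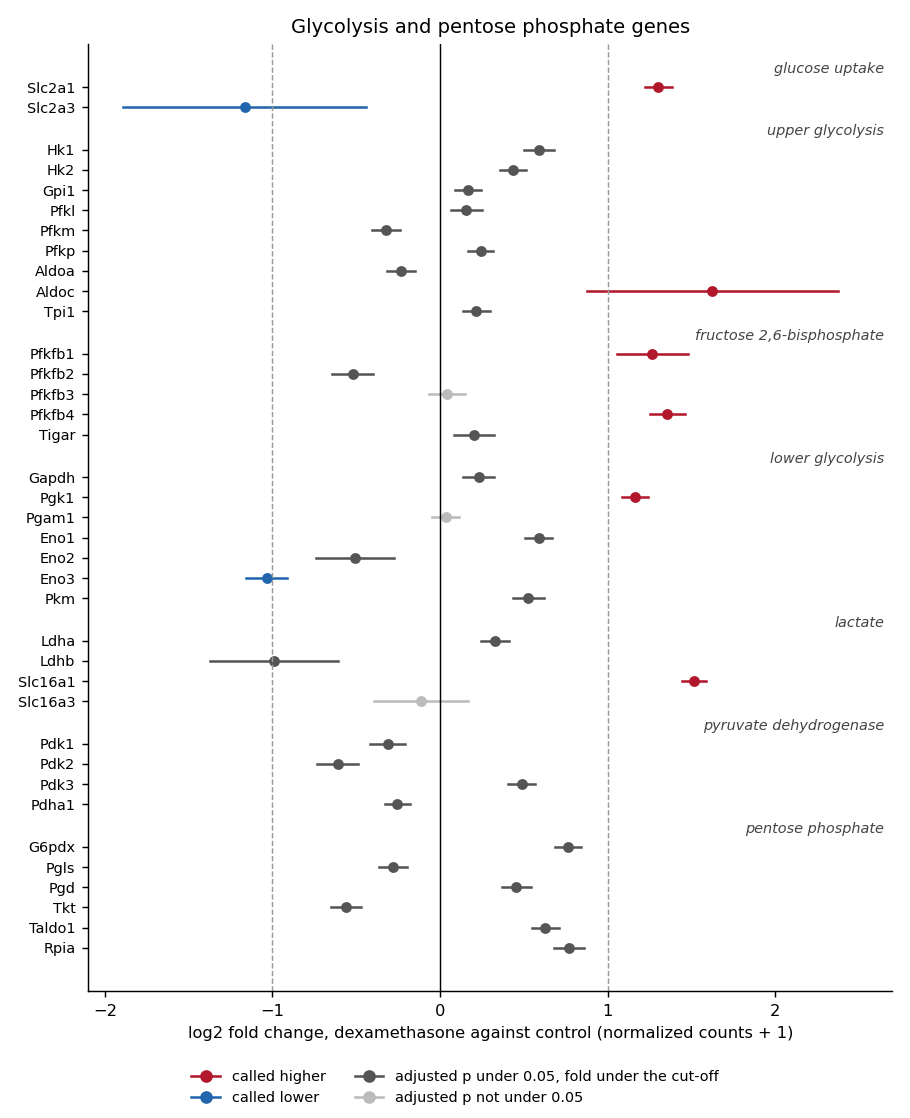
Log2 fold change with dexamethasone (horizontal axis, on the log2(normalized count + 1) scale) of the 37 tested members, grouped by role; points are estimates from 3 against 3 libraries, bars their 95% confidence intervals, and red and blue mark members called higher and lower. Points range from -1.17 (Slc2a3) to 1.63 (Aldoc), and 8 of them lie beyond the cut-off of 1 in either direction.

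The stretch of DNA before a gene's start is where regulators of that gene often bind. The windows of 250 bases before the RefSeq transcription starts (mouse build GRCm38.p6) are shown for 4 of the 6 members called higher. Pfkfb1 and Aldoc, also called higher, hold neither of the motifs marked below in any window and are left out. A window is also shown for Ldha, a member that was not called but holds the most copies of ACGTG among the members. Another window of Ldha holds neither motif and is left out. Capitals mark ACGTG, the core of the hypoxia response element, or AGAACA, a glucocorticoid receptor half-site, on either strand, read 5′ to 3′ on the strand of the gene.
Pgk1, chrX:106186850-106187099, plus strand: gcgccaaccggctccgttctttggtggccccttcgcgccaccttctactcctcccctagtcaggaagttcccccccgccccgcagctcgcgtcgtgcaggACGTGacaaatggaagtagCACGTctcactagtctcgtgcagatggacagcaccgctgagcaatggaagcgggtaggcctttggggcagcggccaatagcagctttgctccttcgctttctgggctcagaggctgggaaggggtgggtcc
Slc2a1, chr4:119108495-119108744, plus strand: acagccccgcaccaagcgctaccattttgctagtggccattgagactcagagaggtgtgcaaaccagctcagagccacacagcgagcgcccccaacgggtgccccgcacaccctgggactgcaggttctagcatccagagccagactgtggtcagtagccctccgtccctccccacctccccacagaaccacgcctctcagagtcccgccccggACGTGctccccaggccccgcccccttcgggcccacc
Slc16a1, chr3:104638414-104638663, plus strand: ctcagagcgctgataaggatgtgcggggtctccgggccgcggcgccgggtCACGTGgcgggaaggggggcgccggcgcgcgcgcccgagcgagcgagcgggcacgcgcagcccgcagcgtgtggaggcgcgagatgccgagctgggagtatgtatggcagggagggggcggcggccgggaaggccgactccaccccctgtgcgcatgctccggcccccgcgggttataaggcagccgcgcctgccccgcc
Pfkfb4, chr9:108991652-108991901, plus strand: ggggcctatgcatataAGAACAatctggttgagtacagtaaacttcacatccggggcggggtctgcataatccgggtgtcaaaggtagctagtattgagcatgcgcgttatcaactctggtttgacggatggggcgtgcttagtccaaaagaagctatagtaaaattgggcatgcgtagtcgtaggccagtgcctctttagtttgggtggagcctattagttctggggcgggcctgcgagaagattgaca
Ldha, chr7:46845554-46845803, plus strand: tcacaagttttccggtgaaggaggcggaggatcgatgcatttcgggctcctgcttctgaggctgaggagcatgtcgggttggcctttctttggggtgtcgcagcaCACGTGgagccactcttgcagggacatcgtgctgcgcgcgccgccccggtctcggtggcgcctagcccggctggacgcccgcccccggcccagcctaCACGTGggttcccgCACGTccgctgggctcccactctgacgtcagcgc

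Of the 36 members with a window in RefSeq, 14 held ACGTG on either strand (38.9%), beside 18.5% of 27025 genes. They included Pgk1, Slc2a1 and Slc16a1 among the 6 called higher, and also Aldoa and Pgam1, which were not called. AGAACA was present in 10 of the 36 (27.8%), Pfkfb4 among them, beside 18.2% of genes. CACGTG, the E-box that contains ACGTG, was present in 6 (16.7%), beside 6.86% of genes. A gene was counted if any of its windows held the motif. The 27025 genes had 32851 windows, and several members had more than 1, such as Pfkm with 4. The shares of members and of all genes are therefore not set at an equal number of windows per gene. The 27025 genes were also not matched to the members in expression level or in the base composition of their windows. These matches describe letters in the windows and not bound sites.

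Glucose enters cells through transporters of the Slc2a family. Slc2a1 encodes GLUT1, the widespread basal transporter. In the control libraries, here and below in the order of their replicate numbers, it was listed at 3196, 3474 and 3288 normalized counts, against 8403, 8084 and 8081 with dexamethasone. Every dexamethasone library lay above every control library, with a log2 fold change of 1.30 (SE 0.039, adjusted p = 6.74e-20). Slc2a3 encodes GLUT3, a high-affinity transporter best known from neurons. Its values were 29.4, 16.6 and 31.6 in control and 8.59, 9.81 and 14.0 with dexamethasone. The groups did not overlap, and the log2 fold change was -1.17 (SE 0.35, adjusted p = 0.0047). Its counts were low throughout, and with a pseudocount of 5 its log2 fold change of -0.95 no longer reached the cut-off. Slc2a4, the insulin-responsive GLUT4 of muscle and fat, stayed at 0 to 1.96 normalized counts, within the floor of 3 reads, and was not tested.

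The hexokinases trap glucose in the cell as glucose 6-phosphate. Hk1, the broadly expressed form, rose from 12714, 13882 and 12993 normalized counts to 21322, 18932 and 19370, a log2 fold change of 0.59 (SE 0.043, adjusted p = 5.77e-12). Hk2, the more tightly regulated form, rose from 4933 to 5127 in control to 6582 to 7056 with dexamethasone, with a log2 fold change of 0.44 (adjusted p = 1.47e-10). In both genes the groups were apart, at changes under 2-fold.

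The next steps isomerise, phosphorylate and cleave the sugar. Aldoa, the main aldolase, had the highest level per kb of these enzymes. Its values were 42055, 45592 and 43128 in control and 37390, 35471 and 38376 with dexamethasone. All dexamethasone values lay below the control values, with a log2 fold change of -0.23 (SE 0.040, adjusted p = 1.55e-05). Aldoc, the aldolase typical of brain, was called higher, from 12.9, 4.89 and 12.3 to 27.7, 27.3 and 38.4 (log2 fold change 1.63, SE 0.36, adjusted p = 0.0003). Its groups did not overlap, but per kb of transcript it made up at most 0.056% of the summed aldolase RNA in any library.

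Gpi1, glucose phosphate isomerase, passed with a log2 fold change of 0.17. Tpi1, which interconverts the triose phosphates, passed with 0.22. The 3 subunits of phosphofructokinase moved in different directions: Pfkp rose by 0.24 and Pfkl by 0.16 on the log2 scale, whereas Pfkm, the muscle subunit, fell by 0.32 (adjusted p = 1.45e-07). The Pfkl groups overlapped, at 7167 to 8149 against 8138 to 9048 normalized counts, and under quantile normalization its log2 fold change was -0.06. Pfkp no longer passed under quantile normalization (0.05, adjusted p = 0.12), nor did Gpi1 (0.06, adjusted p = 0.058) and Pfkl (0.04, adjusted p = 0.27) with libraries set to the same total. Gpi1, Pfkl and Tpi1 lay below 0 relative to Gapdh (-0.06, -0.07 and -0.01).

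Pfkp overlaps Pitrm1, a gene on the opposite strand, and 16.6% of the 75-base stretches of its principal transcript occur in that gene too. Pitrm1 was itself listed at 6997 to 7545 normalized counts in control and 11521 to 12434 with dexamethasone. The strand setting of the count is not given in the sources used here, so that reads of the overlap cannot be assigned with certainty.

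The Pfkfb genes encode the enzymes that make or remove fructose 2,6-bisphosphate. Pfkfb4 had 741, 799 and 778 normalized counts in control and 2033, 1916 and 1994 with dexamethasone. Pfkfb1, the form known from liver and muscle, had 142, 149 and 131 against 325, 349 and 345. Both were well apart between groups. The ratio of means was 2.56 for Pfkfb4 (adjusted p = 1.16e-17) and 2.42 for Pfkfb1 (log2 fold change 1.27, SE 0.10, adjusted p = 4.42e-11). Pfkfb2, the heart form, went the other way, from 1155 to 1279 down to 797 to 901, a log2 fold change of -0.52 (adjusted p = 2.22e-08). Pfkfb3, the form with the strongest kinase over phosphatase activity, did not pass. Its values of 1467, 1557 and 1417 in control overlapped with 1563, 1448 and 1560 with dexamethasone, with a 95% confidence interval of the log2 fold change from -0.06 to 0.15 and an adjusted p of 0.47. Its direction also turned with the scaling, to -0.07 with libraries set to the same total and -0.10 under quantile normalization. Tigar, a phosphatase that lowers fructose 2,6-bisphosphate, passed at a log2 fold change of 0.20 (adjusted p = 0.0027). It no longer passed with libraries set to the same total (0.09, adjusted p = 0.11) and lay at -0.03 relative to Gapdh.

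**Figure D2:**
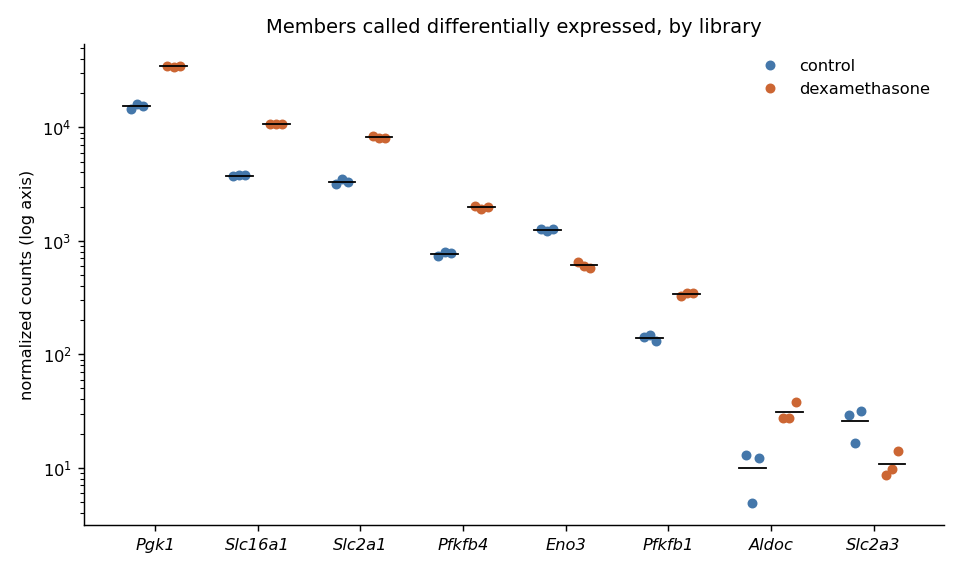
Normalized counts (vertical axis, log scale) of the 8 called members in the 3 control (blue) and 3 dexamethasone (orange) libraries; each point is a library and the line the group mean. In each gene the groups do not overlap, and Slc2a3 and Aldoc lie under 40 normalized counts.

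In the pay-off phase, which yields ATP, 4 of 7 members rose, 2 fell and 1 did not pass. Of all genes, 37.2% passed as higher and 35.2% as lower. Pgk1, phosphoglycerate kinase and the first ATP-forming enzyme, stood out among the 7 members. It was listed at 14649, 16034 and 15434 normalized counts in control and at 34819, 33777 and 34679 with dexamethasone. The groups lay far apart, with a log2 fold change of 1.16 (SE 0.038, adjusted p = 3.75e-19). Relative to Gapdh it was 0.93, just under the cut-off.

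Gapdh, glyceraldehyde phosphate dehydrogenase, was listed at 112194, 117340 and 114197 normalized counts in control and 133717, 130742 and 138858 with dexamethasone. The groups were apart by a small margin, with a log2 fold change of 0.23 (SE 0.044, adjusted p = 5.66e-05). This ratio was 1.17 in linear terms, and it held 0.147% to 0.148% of all normalized counts in control and 0.156% to 0.165% with dexamethasone. Pgam1, the phosphoglycerate mutase that follows Pgk1, did not pass. Its control values of 13326 to 14592 overlapped with 13981 to 14785, with a log2 fold change of 0.03, a 95% confidence interval from -0.04 to 0.11 and an adjusted p of 0.44. Its direction turned to -0.08 with libraries set to the same total, to -0.19 under quantile normalization and to -0.20 relative to Gapdh.

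The enolases make phosphoenolpyruvate. Eno1, the broadly expressed form, rose from 29216, 31041 and 31000 to 47184, 43902 and 46151 normalized counts (log2 fold change 0.59, SE 0.039, adjusted p = 1.08e-12). Eno3, the muscle form, was called lower, from 1267, 1210 and 1280 to 653, 602 and 580.2, with a log2 fold change of -1.03 (SE 0.060, adjusted p = 6.62e-14). Neither gene's groups overlapped. Without dexamethasone replicate 3, Eno3 reached -0.997 and was no longer called. Eno2, the neuronal form, fell from 217 to 241 to 145 to 181 (log2 fold change -0.51, adjusted p = 0.0003).

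Of 10 skeletal muscle markers, 4 could be tested. Acta1 was called lower (-1.56), Pygm passed as lower (-0.57), and Mylpf and Tnnt3 did not pass, at 0.33 and 0.82. The summed level of the list was 223 to 247 normalized counts in control and 157 to 201 with dexamethasone. Pygm held the largest part of it, at 142 to 169 in control and 77.3 to 138 with dexamethasone. The defining markers Ckm, Myh4 and Mb lay at 0 to 9.67, and Myh1 and Myh2 were not listed. The part of muscle RNA in the change of Eno3 was not tested.

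Pkm, pyruvate kinase, completes glycolysis. It rose from 73822, 77596 and 75678 to 114806, 103449 and 109329 normalized counts, with a log2 fold change of 0.53 (SE 0.045, adjusted p = 1.11e-10) and groups well apart. The table gives genes and not transcripts, so that the M1 and M2 forms of Pkm were not separated.

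Lactate dehydrogenase converts pyruvate to lactate. Ldha, the subunit that favours lactate, had 42153, 45779 and 45024 normalized counts in control and 55808, 54598 and 56610 with dexamethasone. Ldhb, the subunit typical of heart, had 83.5, 95.9 and 93.1 against 38.2, 54.5 and 44.2. Thus Ldha was higher in every dexamethasone library (log2 fold change 0.33, SE 0.040, adjusted p = 6.35e-08) and Ldhb was lower in every one (-0.99, SE 0.19, adjusted p = 4.14e-05). Ldhb lay just short of the cut-off. It was called by edgeR and DESeq2, with libraries set to the same total, relative to Gapdh, and without control replicate 1 or dexamethasone replicate 2.

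Monocarboxylate transporters carry lactate and pyruvate across the plasma membrane. Slc16a1 encodes MCT1 and had the smallest p of the members. It was listed at 3706, 3764 and 3792 normalized counts in control and at 10792, 10638 and 10803 with dexamethasone. The spread within each group was far smaller than the distance between the groups, with a log2 fold change of 1.52 (SE 0.035, adjusted p = 2.88e-22), a ratio of 2.86. Slc16a3, which encodes MCT4, did not pass, with 133, 131 and 142 against 143, 129 and 107. Its groups overlapped, with a 95% confidence interval of the log2 fold change from -0.39 to 0.17 and an adjusted p of 0.47, and its direction turned without dexamethasone replicate 3.

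Pyruvate dehydrogenase admits pyruvate to the mitochondria, and the Pdk kinases switch it off. Pdha1, its catalytic alpha subunit, fell from 15754, 16445 and 15914 normalized counts to 13608, 12931 and 13773, a log2 fold change of -0.26 (SE 0.036, adjusted p = 7.33e-07). Of the kinases, Pdk1 and Pdk2 fell, with log2 fold changes of -0.31 and -0.61 (adjusted p = 4.68e-06 and 1.35e-09). Pdk3 rose from 2631 to 2691 in control to 3601 to 3824 with dexamethasone, a log2 fold change of 0.49 (adjusted p = 5.38e-11). In none of these 4 genes did the groups overlap, as in 74.7% of all genes. None of the 4 was called, beside 22.3% of all genes. Pdk4, the remaining kinase of the family, is not a member and is named here after its values were seen. It had 6773, 6993 and 6846 normalized counts in control and 11347, 10109 and 10553 with dexamethasone (0.63, adjusted p = 2.96e-13). Per kb it was the most abundant of the 4 kinases in both groups, at 1972 and 3062, against 1258 and 1764 for Pdk3.

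In the pentose phosphate pathway 4 of 6 members rose and 2 fell, none by 2-fold. By the adjusted p alone, 37.2% of all genes rose and 35.2% fell. Pgd, an NADPH-yielding dehydrogenase, was listed at 13883, 14542 and 13227 normalized counts in control and 19353, 17848 and 19899 with dexamethasone (log2 fold change 0.45, SE 0.042, adjusted p = 5.37e-10). G6pdx, the entry enzyme and the other NADPH source of the pathway, had 7148, 7467 and 7592 against 13086, 12151 and 12516 (log2 fold change 0.77, SE 0.037, adjusted p = 1.99e-15). Between these steps acts the lactonase Pgls, which fell, with a log2 fold change of -0.28 (adjusted p = 1.18e-06).

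The branches that follow rearrange the sugar phosphates. Rpia, which makes ribose 5-phosphate, rose from 1576, 1569 and 1598 to 2685, 2642 and 2756 (log2 fold change 0.77, SE 0.043, adjusted p = 2.82e-14). Taldo1, transaldolase, rose from 9876 to 10667 in control to 15218 to 16571 with dexamethasone (0.63, adjusted p = 2.08e-13). Tkt, transketolase, went the other way, from 8812 to 9920 down to 5949 to 6623 (-0.56, adjusted p = 2.24e-11). In all 6 genes the groups did not overlap, as in 74.7% of all genes.

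Several steps are served by more than one gene, and the make-up of these families was compared as the share of each member in normalized counts per kb of transcript. The shares are descriptions with no test, and they take no account of sequence shared with other genes. Among the 4 Pfkfb genes, Pfkfb4 made up 25.2% ± 0.98 (SD, n = 3) in control and 45.1% ± 0.65 with dexamethasone. Pfkfb3 went from 34.2% to 36.3% in the control libraries to 24.8% to 25.6% with dexamethasone, Pfkfb2 from 31.2% ± 1.8 to 15.2% ± 0.57, and Pfkfb1 from 8.54% ± 0.39 to 14.4% ± 0.83. The most abundant form was thus Pfkfb3 in each control library and Pfkfb4 in each dexamethasone library. Among the 4 Pdk genes, Pdk4 included, Pdk4 went from 46.1% ± 0.34 to 54.9% ± 1.8, Pdk1 from 10.8% ± 0.62 to 6.64% ± 0.26 and Pdk2 from 13.7% ± 0.49 to 6.87% ± 0.30. Pdk3 made up 28.6% to 30.0% in the control libraries and 29.7% to 33.2% with dexamethasone, which overlapped.

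The enolase family was dominated by Eno1, at 94.4% ± 0.29 in control and 98.1% ± 0.099 with dexamethasone, while Eno3 went from 5.05% ± 0.25 to 1.70% ± 0.087. Pfkm went from 26.3% to 26.6% of phosphofructokinase in control to 19.7% to 20.6% with dexamethasone. Slc16a1 was 96.5% ± 0.13 of the sum of Slc16a1 and Slc16a3 in control and 98.8% ± 0.17 with dexamethasone. Ldha made up more than 99% of the sum of Ldha and Ldhb in all libraries. Over the 11 Slc2a genes in the table, members or not, Slc2a1 went from 37.5% to 38.3% in control to 63.4% to 63.9% with dexamethasone, and Slc2a8, an intracellular transporter, from 27.5% ± 0.47 to 20.1% ± 0.35. Summed per kb over the members alone, Slc16a1 and Slc16a3 were 2.79-fold the control level, the hexokinases 1.47-fold, the enolases 1.45-fold and the Pfkfb genes 1.43-fold. The 11 Slc2a genes together were 1.47-fold and the 4 Pdk genes 1.31-fold. The 3 phosphofructokinase subunits summed to 1.06-fold and the aldolases to 0.851-fold.

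**Figure D3:**
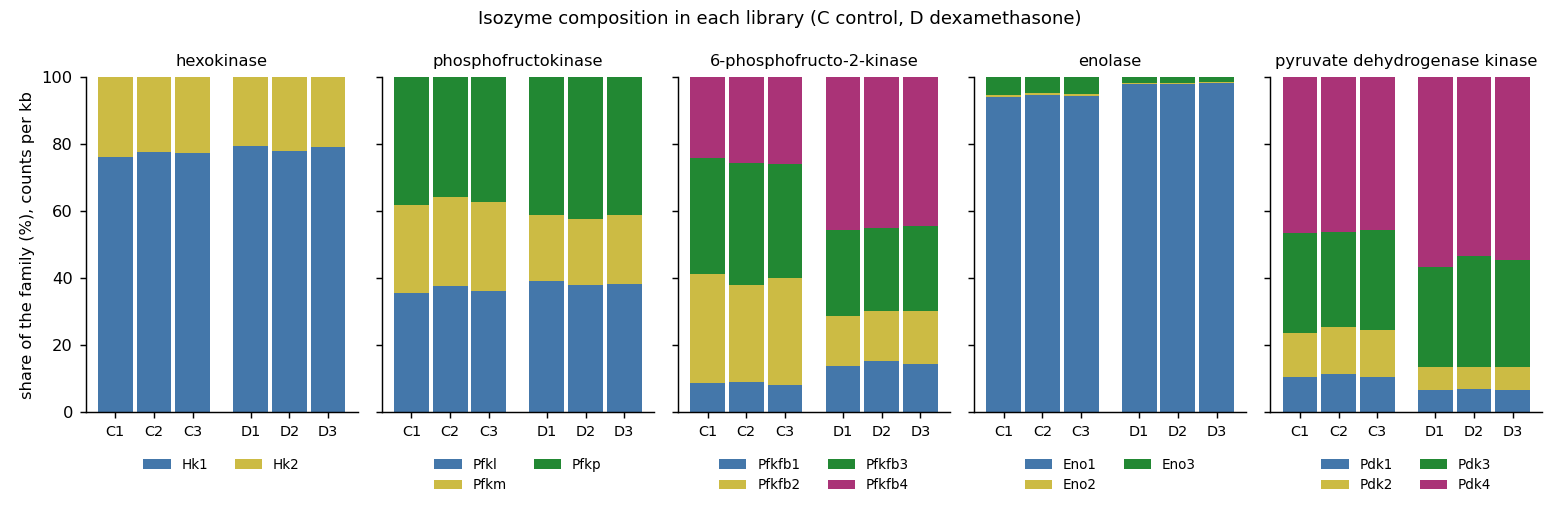
Share of each isozyme in its family (vertical axis, percent of normalized counts per kb of transcript) as stacked bars for the 3 control (C) and the 3 dexamethasone (D) libraries in 5 families, with Pdk4, which is not a member, among the pyruvate dehydrogenase kinases. Pfkfb4 goes from 24.1% to 25.9% in control to 44.5% to 45.8% with dexamethasone, while Eno1 stays above 94% in every library.

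Other genes of glucose carbon use were taken from lists of 90 genes, of which 67 were tested. Of these 67, 4 were called higher and 4 lower, which is 11.9% beside 22.3% of all genes. With no requirement on the fold, 25 passed as higher and 27 as lower and 15 did not pass. The passing share was 77.6% beside 72.5% of all genes. Of all genes, 37.2% passed as higher and 35.2% as lower, the shares beside which the counts of each list below stand. The median log2 fold change of the 67 genes was 0.0079, beside 0.22 for the members. The called genes H6pd and Prps1 belong to the pentose phosphate and ribose list. H6pd, the glucose 6-phosphate dehydrogenase of the endoplasmic reticulum, rose from 3187, 3346 and 3231 to 10920, 9723 and 9917 (log2 fold change 1.64, SE 0.042, adjusted p = 2.42e-21). Prps1, which makes the ribose donor for nucleotides, rose from 2443 to 2538 to 5003 to 5311 (1.06, adjusted p = 6.52e-18), and its relative Prps2 rose by 0.63 on the log2 scale. Of the 8 tested genes of that list, 5 rose and 2 fell, and Rpe, the epimerase of the pathway, was one that fell (-0.23).

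In the gluconeogenesis list, 3 of 8 genes could be tested. Pck2, the mitochondrial phosphoenolpyruvate carboxykinase, was called higher (1.02, adjusted p = 1.49e-18). G6pc3 rose by 0.24 and Slc37a4, the glucose 6-phosphate transporter, fell by 0.40. Fbp1, Fbp2 and G6pc2 were too low to be tested, and Pck1 and G6pc were not listed. In the pyruvate entry list, Pcx, pyruvate carboxylase, was called lower, from 4866, 5198 and 4918 to 2307, 2205 and 2229 (-1.15, adjusted p = 2.06e-18). Its most abundant genes were Cs, citrate synthase (0.25), Me1, malic enzyme (-0.70), and Dld, a shared dehydrogenase subunit (95% confidence interval from -0.07 to 0.08, adjusted p = 0.93). Of 13 tested glycogen genes, 4 rose and 7 fell. Gyg, the glycogenin that primes glycogen, was called lower (-1.06, adjusted p = 8.02e-18). Gaa, the lysosomal glucosidase, fell by 0.78 and Ugp2, which makes UDP-glucose, by 0.54, whereas Pygb, a glycogen phosphorylase, rose by 0.74.

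Of 13 further genes of glycolysis and glucose transport tested, 3 rose and 6 fell. Slc2a6, a transporter of the same family as Slc2a1, was called lower (-1.26, adjusted p = 4.71e-09), as was Pgam2, the muscle phosphoglycerate mutase (-1.01, adjusted p = 1.75e-08). The call of Pgam2 was lost without control replicate 2 or 3 (-0.99 and -0.98) and without dexamethasone replicate 3 (-0.85), with a pseudocount of 5 (-0.998), under quantile normalization (-0.98) and by DESeq2 (-0.9998). Adpgk, an ADP-dependent glucokinase, and Pgp, a phosphatase, rose by 0.51 and 0.73, and Galm, a mutarotase, fell by 0.37. The calls of Prps1 and Pck2 were lost with libraries set to the same total (0.94 and 0.91) under quantile normalization (0.89 and 0.82) and relative to Gapdh (0.83 and 0.79), and that of Pck2 also by edgeR (0.99).

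Among 17 tested regulators of glycolytic transcription, 6 rose, 5 fell and 6 did not pass. By the adjusted p alone, 37.2% of all genes rose and 35.2% fell. Hif1a, the oxygen-sensitive factor that binds the ACGTG core, fell from 12777, 13206 and 13185 to 7780, 7540 and 7708 (log2 fold change -0.77, SE 0.034, adjusted p = 3.46e-16). Hif3a was at 0 to 2.75 normalized counts in control and 550.0 to 577 with dexamethasone, at least 193-fold higher against the largest floor of 3 reads in a control library. Nfe2l2, an activator of the pentose phosphate genes, rose by 0.41. Txnip, an inhibitor of glucose uptake, did not pass (95% confidence interval from -0.08 to 0.08, adjusted p = 0.97).

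**Figure D4:**
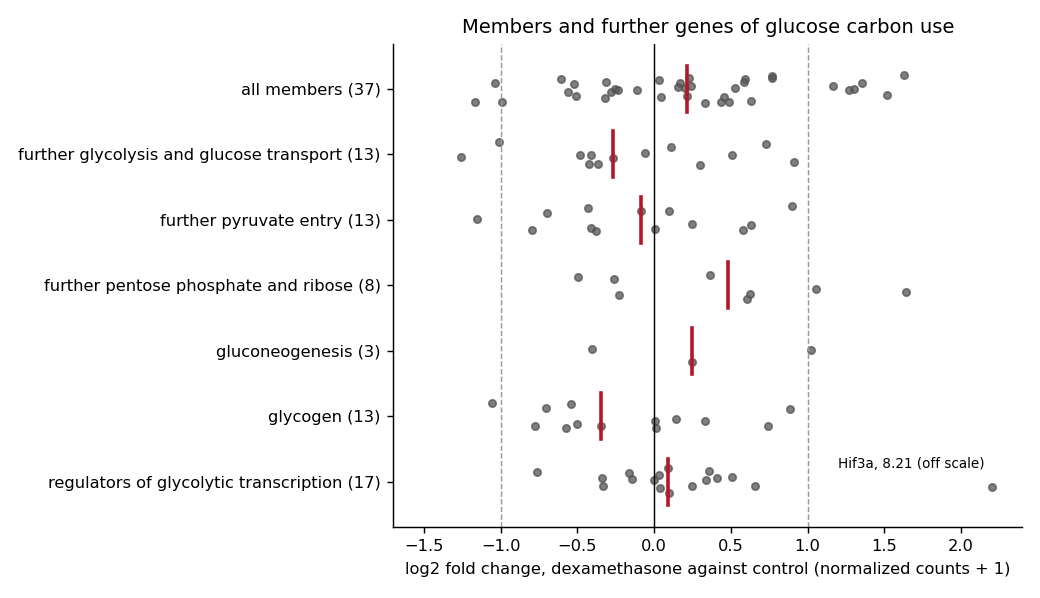
Log2 fold changes (horizontal axis, log2(normalized count + 1) scale) of the tested members and of the tested genes in 6 further lists; each point is a gene, the bar the median of the list, and dashed lines the cut-off of 1 in either direction. Medians run from -0.35 for glycogen to 0.48 for pentose phosphate and ribose, and Hif3a at 8.21 is drawn at the right edge, off scale.

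Glycolytic genes have many near-identical copies in the genome, and the reads of a member can be lost to them or gained from them. Of the 75-base stretches in the principal transcript of Gapdh, 80.3% also occur in other genes, 121 of them. The values were 67.5% for Pgk1, 65.4% for Eno1 and 40.6% for Pgam1. Summed over the copies in the table, these added 7.34 to 9.67 normalized counts to Pgk1 in control and 23.9 to 27.3 with dexamethasone, and the ratio was 2.24 with and without them. For Gapdh the ratio went from 1.17 to 1.18. A copy here is any gene that shares such a stretch. Most counts added to Gapdh were those of Peli2, at 1374 to 1422 in control and 2643 to 2947 with dexamethasone. Reads that were counted for no gene are not seen in these sums. The copies of Ldhb weighed more, since 1 copy held 19.1% as many counts as Ldhb. The ratio went from 0.502 to 0.612 when they were added. Pitrm1, which shares stretches with Pfkp, held 101.1% as many counts as Pfkp. Adding it took the ratio of Pfkp from 1.18 to 1.39. For Pkm, with 19.6% of stretches shared, the ratio was 1.44 with and without copies, and for Pfkfb2, with 24.3%, it was 0.70. Aldoa is listed under 2 Ensembl identifiers. The more abundant row is described here, and the other, with a mean of 142 normalized counts, had a log2 fold change of -0.03 (adjusted p = 0.82).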

How the data were processed

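Per the labels, RNA libraries were made with a stranded mRNA kit. The submitters' processing notes name STAR 2.7.10a, DESeq2 1.36.0 and build GRCm39, and the annotation release and strand setting are not given in the sources used here. The authors divided read counts per gene by a DESeq2 size factor for each library, and the deposited values are this signal, called normalized counts here. All values were whole multiples of 1 read within 0.01 reads, so that whole reads were recovered for 100% of values. A count of 0 allows up to 3 reads, for counting error only. Symbols and transcript lengths came from GENCODE M21, which named 28103 of 29616 genes. Promoter windows came from RefSeq (GRCm38.p6).

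The 17442 genes whose mean reached 10 normalized counts were compared with limma 3.58.1 (R 4.3.3) on log2(normalized count + 1) with a mean-variance trend and Benjamini-Hochberg adjustment over all of them. Fold changes of low genes are understated on this scale. Calls needed an adjusted p under 0.05 and a change of 1 or more on the log2 scale, the cut-offs in the study's methods. Per-library values are given for members called and for the leading member of each role, further genes were named if called or among the 3 most abundant of their list, and any other was picked with its values in view. The members and lists were chosen with earlier results of these data known. On simulated data of 17264 genes, 200 of 200 genes changed 4-fold were recovered, and 5 unchanged genes were called. The changed genes left out those of low mean and moved by more than the cut-off. Recovery near the cut-off or at low counts was therefore not tested. Replicates differed by more than sampling noise (chi-square per degree of freedom 3.52 to 29.6). Alternatives were other pseudocounts, filters, scalings and call rules, limma without trend, edgeR 4.0.16 and DESeq2 1.42.0 on recovered reads, a replicate block, and each library left out.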

Additional observations from a re-analysis of the deposited data

How the results depend on the processing

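Between 5 and 6 members were called higher under every alternative run except the adjusted p alone. Leaving out single libraries, the number called lower ranged from 1 to 3, with 1 lower without dexamethasone replicate 3 (Eno3 lost) and 3 without control replicate 1 or dexamethasone replicate 2 (Ldhb gained). With a pseudocount of 5 and with a filter at a mean of 100 normalized counts, 1 member was called lower. The higher filter left 2170 genes called, since fewer genes were tested. By the adjusted p alone 12645 genes, 22 members higher, 12 members lower and 52 further genes passed. Quantile normalization left 5 further genes called. The median log2 fold change of the members was 0.10 with libraries set to the same total and 0.12 under quantile normalization, where the median of all genes was -0.11 and -0.07. Relative to Gapdh, an alternative chosen after seeing the data, it was -0.0201. The cause of these shifts was not tested. The fit with a replicate block called 2035 genes higher and 1862 lower, with 6 members higher and 2 lower, and changed no call of a member. Deviations of same-numbered libraries correlated at -0.23 to -0.05, so that the numbers were not taken as pairs.

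Gpi1, Pfkl and Tigar no longer passed the adjusted p with libraries set to the same total, Pfkl and Pfkp under quantile normalization, and Pfkl by limma without trend. Directions turned for genes with small changes. With libraries set to the same total the log2 fold change was -0.0722 for Pfkfb3, -0.0804 for Pgam1, -0.11 for Dld and -0.11 for Txnip, and under quantile normalization it was -0.056 for Pfkl, -0.098 for Pfkfb3, -0.19 for Pgam1, -0.18 for Dld and -0.22 for Txnip. By edgeR and DESeq2, Dld was at -0.0228 and -0.00598 and Txnip at -0.0249 and -0.00796. Relative to Gapdh, Gpi1 was at -0.0613, Pfkl at -0.074, Tpi1 at -0.0136, Pfkfb3 at -0.19, Tigar at -0.0266, Pgam1 at -0.20, Dld at -0.23 and Txnip at -0.23. With single libraries left out, Pgam1 ranged from -0.00147 to 0.064, Slc16a3 from -0.206 to 0.00229, Dld from -0.0167 to 0.0269 and Txnip from -0.0308 to 0.0349. For Pgam1, Dld and Txnip the values with libraries set to the same total and under quantile normalization passed the adjusted p, as did Pfkfb3 under quantile normalization, so that their direction depended on the scaling.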

Other observations

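The serine branch leaves glycolysis at 3-phosphoglycerate, the product of Pgk1. Its genes were put on a list after the main results had been seen, so their counts are a description. Of 5 genes, 4 were called higher, beside 11.7% of all genes called higher. Phgdh, the entry enzyme, was listed at 10665, 10691 and 11082 normalized counts in control and at 28317, 27500 and 28328 with dexamethasone, a log2 fold change of 1.38 (SE 0.035, limma adjusted p = 2.02e-21). Psat1, the aminotransferase that follows, rose from 18830 to 19452 to 63431 to 64544 (1.74, adjusted p = 2.55e-23). Psph, the last step to serine, passed at 0.72 and was not called. Shmt1 and Shmt2, which turn serine into glycine and one-carbon units in the cytosol and the mitochondria, were called higher at 1.98 and 1.81. In none of the 5 genes did the groups overlap, as in 74.7% of all genes. The proliferation markers rose in the same libraries, and their part in these values was not tested.

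The other branches, listed in the same way, held fewer calls. For comparison, 37.2% of all genes passed as higher and 35.2% as lower, and 10.6% were called lower. In the hexosamine and nucleotide sugar branch 3 of 9 tested genes rose and 3 fell, and none was called. Gfpt1, its entry enzyme, fell from 21253 to 22080 to 15633 to 16417 (log2 fold change -0.44, adjusted p = 3.86e-11). In the glycerol phosphate and polyol branch 2 of 6 were called, both lower. Sord, sorbitol dehydrogenase, had 8062, 8540 and 8055 normalized counts in control and 2895, 2697 and 2881 with dexamethasone (-1.54, adjusted p = 3.39e-21). Khk, the kinase of fructose, had 112, 138 and 149 against 31.5, 48.0 and 48.8 (-1.63, adjusted p = 3.38e-08). In both genes the groups lay apart. The malate-aspartate shuttle, which carries reducing equivalents of glycolysis into mitochondria, had 3 genes that rose and 3 that fell out of 7, and none was called.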
